A study of Arabidopsis thaliana with 12 samples.

Results

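The genes described here are those whose signal in leaves of OE2, a TaFLS overexpression line of Arabidopsis thaliana, lay apart from 3 other genotypes on every array. They were chosen on the measured values. A probe set, the group of probes that measures a transcript, was taken when its mean over the 12 arrays was at least 7 on the log2 scale, when the OE2 mean differed from the means of OE1, fls1-3 and Col-0 by at least 0.6 log2 units in the same direction, and when all 3 OE2 arrays lay beyond the other 9 on that side. Control and plastid-encoded probe sets were left out, and the stress regulator genes ORA47 and STZ were left out by name. With these genes kept, 32 probe sets rather than 30 met the choice as lower in OE2. Of 22746 probe sets, 12126 were bright enough and of a kind open to this choice, and 65 met it, 35 higher and 30 lower in OE2. A further 88 probe sets met every other condition and had a mean below 7. The annotation used here names 1 gene for 26 of the 65, a pair of genes for 1, and none for 38.

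The study covered rosette leaves of plants 6 weeks old, grown in soil at 22 °C and 60% humidity with days of 16 h, with 3 arrays for each of 4 genotypes. OE2 and OE1 are lines 2 and 1 of a TaFLS overexpression, fls1-3 is a mutant named for FLS1, and Col-0 is the wild type. Each transgenic genotype is a single line, and the promoter that drives TaFLS, and whether leaves of several plants were pooled, are not given in the sources used here. The labels give a raised flavonol content for OE2 and for fls1-3 and a lowered one for OE1. These descriptions differ between lines of the same overexpression, and the annotation used here names no probe set for FLS1, so they were not checked.

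Flavonol synthase turns dihydroflavonols into flavonols, pigments that absorb ultraviolet light and scavenge oxygen radicals in leaf cells. Beyond that pathway, a leaf carries sets of transcripts that respond within minutes to wounding, cold or microbes, among them genes of immune receptors and extracellular proteases. Chaperones fold proteins in all its cells, and class I TCP factors and brassinosteroid-regulated genes take part in the growth of leaf cells. In a bulk leaf sample, fewer cells of a type and less RNA per cell cannot be told apart.

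Since the choice used the OE2 values, the distance of OE2 from the other groups is given below as a description without a test. The members higher in OE2 stood above the nearest of the other 3 group means by 0.61 to 1.56 log2 units, with a median of 0.78. The members lower in OE2 had differences from the nearest mean between -2.82 and -0.60, with a median of -0.89. A distance of at least 1 log2 unit from every other group was reached by 5 of the 35 higher and 12 of the 30 lower members. The separation of single arrays was narrower, with a median gap between the lowest OE2 array and the highest other array of 0.16 among the higher members and a median of -0.24 in the reverse sense among the lower members.

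**Figure D1:**
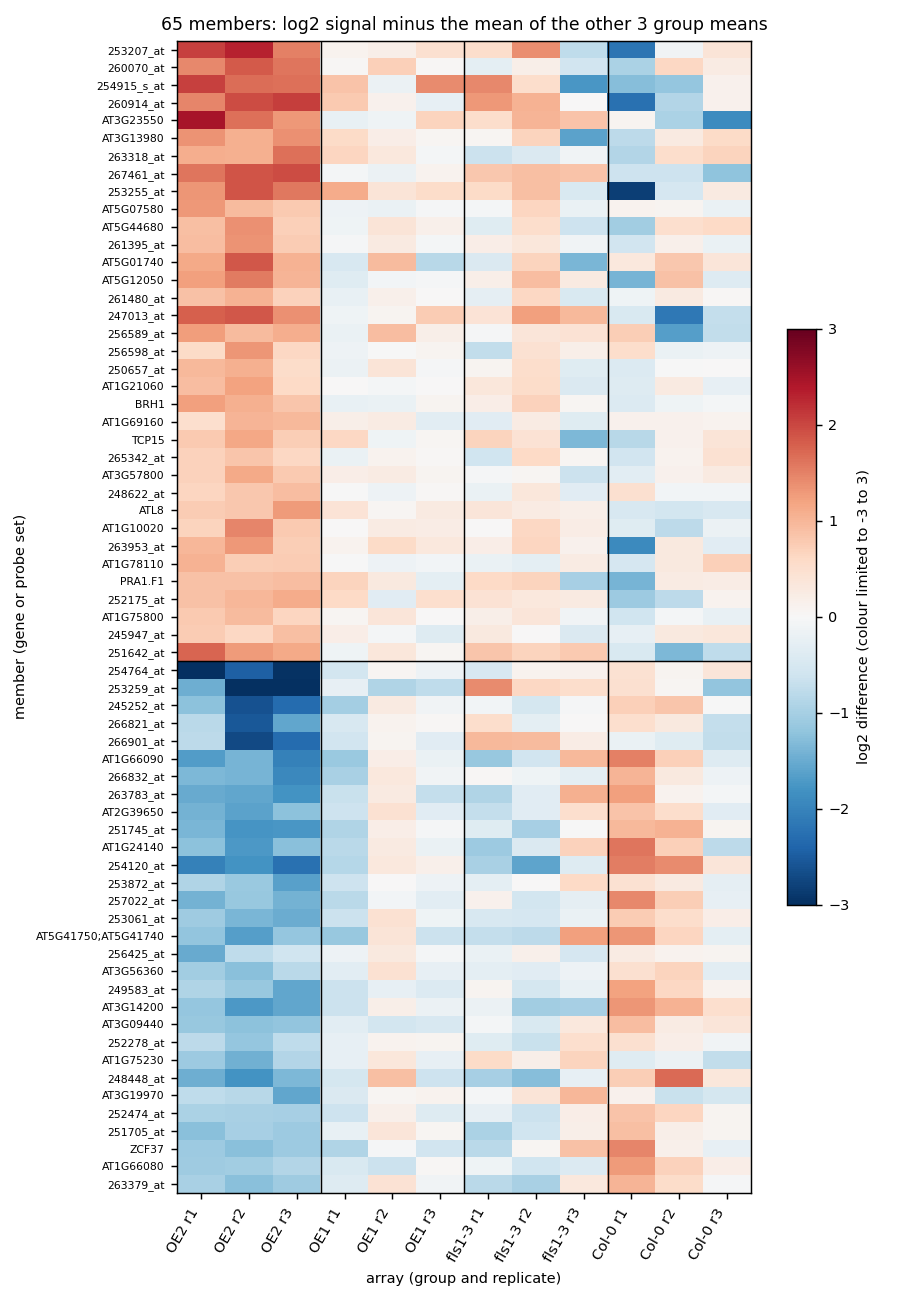
Each row is 1 of the 65 members, named by its gene or, where unnamed, its probe set, and each column 1 of the 12 arrays, with replicates marked r. Colour gives the log2 signal minus the mean of the OE1, fls1-3 and Col-0 group means. All 3 OE2 columns are red for the 35 higher members and blue for the 30 lower members, which the choice of members fixes, and the lower members also differ in colour among the Col-0 and OE1 arrays.

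The same choice made for each other genotype shows how common such genes were. In OE2 the higher members were 0.289% and the lower members 0.247% of the probe sets open to the choice. In fls1-3 there were 92 higher and 20 lower (0.759% and 0.165%), in OE1 16 higher and 41 lower (0.132% and 0.338%), and in Col-0 58 higher and 60 lower (0.478% and 0.495%). OE2 was thus neither the group with the most such probe sets nor the one with the fewest. Its arrays were the most alike of the 4 groups, with a median SD over the open probe sets of 0.158 in OE2, 0.226 in OE1, 0.276 in fls1-3 and 0.294 in Col-0. The part of that likeness in the choice of members was not tested.

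**Figure D2:**
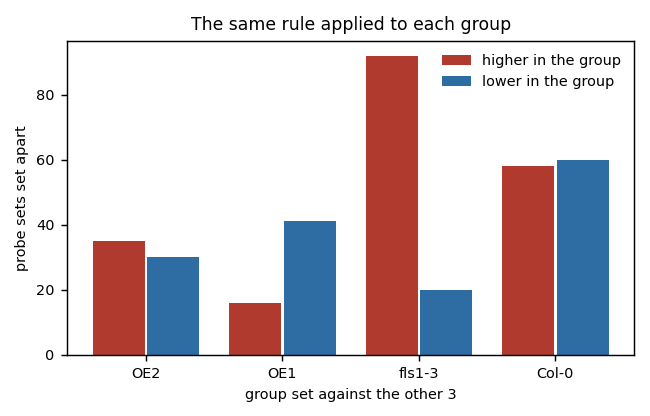
Bars count the probe sets that met the same choice in each genotype, red for those higher and blue for those lower than in the other 3. OE2 has 35 and 30, between OE1 with 16 and 41 and fls1-3 with 92 and 20.

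The lower members include 3 genes whose proteins are tied to chaperone work, a grouping made after their values were seen. Other chaperone genes on the array were not counted, so the grouping does not show a trait of chaperone genes in OE2. AT3G09440 encodes a cytosolic heat shock cognate protein of the HSP70 family. It gave log2 signals of 11.12, 11.01 and 11.05 in OE2, 11.94, 11.69 and 11.76 in OE1, 12.19, 11.78 and 12.57 in fls1-3, and 13.17, 12.50 and 12.61 in Col-0. The OE2 arrays agreed to an SD of 0.054 and lay below every other array, and the OE1 arrays in turn lay below every Col-0 array. AT3G14200 encodes a protein with a DnaJ domain, the part through which co-chaperones bind HSP70 proteins. Its signals were 7.76, 7.22 and 7.38 in OE2, 8.29, 9.11 and 8.76 in OE1, 8.75, 7.89 and 7.93 in fls1-3, and 10.27, 9.97 and 9.43 in Col-0. Every array of the 3 other lines lay below every Col-0 array, with OE2 lowest. The distance of its OE2 mean from the nearest mean was -0.74, and -0.46 without fls1-3 replicate 1. AT1G66080 encodes a protein like human Hikeshi, the carrier that brings HSP70 into the nucleus. It had 6.25, 6.27 and 6.41 in OE2, 6.84, 6.67 and 7.34 in OE1, 7.19, 6.70 and 6.90 in fls1-3, and 8.59, 8.004 and 7.51 in Col-0. Its OE2 signals lay below the array medians, and its distance from the nearest group mean, fls1-3, was -0.62, one of the smallest among the members. The distance from the nearest mean was -0.44 without OE1 replicate 3 and -0.38 with 64 added to each linear signal. AT1G66080 met the choice again under 8 of 17 other settings of processing and left-out arrays, the fewest of the members.

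AT1G66090, the neighbour of AT1G66080 on chromosome 1 with no protein-coding gene between them, had the largest distance among the lower members that name a gene. It encodes a protein of the TIR-NBS class, a shortened form of the receptors that detect microbes inside plant cells. The signals were 7.63, 7.90 and 7.27 in OE2, 8.19, 9.50 and 9.11 in OE1, 8.16, 8.71 and 10.28 in fls1-3, and 10.82, 10.002 and 8.91 in Col-0. OE2 lay apart while the other 3 groups overlapped, and the OE2 mean was 1.34 log2 units below the nearest other mean, that of OE1, a factor of 2.52. Without fls1-3 replicate 3 the nearest mean was that of fls1-3, and the difference from it was -0.84. The probe set for AT5G41750 and AT5G41740, both of the TIR-NBS-LRR receptor class, cannot tell the pair apart. Its signals were 8.31, 7.82 and 8.33 in OE2, 8.36, 9.88 and 8.83 in OE1, 8.76, 8.70 and 10.71 in fls1-3, and 10.80, 10.14 and 9.20 in Col-0. The separation here was thin, 8.33 in OE2 against 8.36 in OE1. The difference from the nearest mean was -0.87, against -0.44 without OE1 replicate 2 and -0.57 without fls1-3 replicate 3.

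AT1G24140 encodes a matrix metalloproteinase, a zinc protease of the cell surface. It gave 7.47, 6.97 and 7.43 in OE2, 7.90, 8.98 and 8.503 in OE1, 7.61, 8.26 and 9.40 in fls1-3, and 10.30, 9.41 and 7.92 in Col-0. AT2G39650, of the plant family with the domain of unknown function DUF506, gave 6.60, 6.41 and 6.78 in OE2, 7.39, 8.45 and 7.67 in OE1, 7.29, 7.67 and 8.52 in fls1-3, and 8.86, 8.53 and 7.67 in Col-0. For both genes the arrays of the other groups were spread widely and overlapped each other. The gap between the highest OE2 array and the lowest other array was -0.15 in AT1G24140 and -0.52 in AT2G39650. For AT1G24140 the difference from the nearest mean was -1.14, and -0.65 without fls1-3 replicate 3. ZCF37 gave 8.69, 8.52 and 8.70 in OE2, 8.88, 9.76 and 9.22 in OE1, 8.97, 9.85 and 10.67 in fls1-3, and 11.25, 9.94 and 9.53 in Col-0. Its Col-0 arrays alone covered a wider span than the distance of OE2 from OE1, which was -0.65, and -0.41 without OE1 replicate 2. AT3G56360 gave 10.91, 10.69 and 11.16 in OE2, 11.65, 12.42 and 11.72 in OE1, 11.65, 11.62 and 11.81 in fls1-3, and 12.44, 12.63 and 11.64 in Col-0. It is one of the brighter members and was tight in fls1-3, with an SD of 0.10.

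A pair of named lower members broke the order of the others by being lower in Col-0 than in the remaining lines. AT1G75230, of the DNA glycosylase superfamily, gave 8.92, 8.56 and 9.12 in OE2, 9.76, 10.35 and 9.75 in OE1, 10.58, 10.18 and 10.68 in fls1-3, and 9.63, 9.82 and 9.28 in Col-0. All 3 fls1-3 arrays lay above every Col-0 array while all 3 OE2 arrays lay below every Col-0 array. Over the open probe sets, 8.05% had all fls1-3 arrays above the Col-0 arrays, and 3 of the 30 lower members did, a similar share. AT3G19970, of the alpha/beta hydrolase fold, gave 7.67, 7.61 and 6.89 in OE2, 7.997, 8.497 and 8.54 in OE1, 8.41, 8.83 and 9.42 in fls1-3, and 8.57, 7.78 and 7.90 in Col-0. Here fls1-3 and Col-0 overlapped, and the difference of OE2 from Col-0, -0.69, was -0.44 without OE2 replicate 3 and -0.45 without Col-0 replicate 1. In the limma fit over all probe sets, fls1-3 minus Col-0 was 0.90 ± 0.22 for AT1G75230 (SE, n = 3 against 3; adjusted p = 0.0839) and 0.80 ± 0.31 for AT3G19970 (adjusted p = 0.370), so neither passed.

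The largest distances of all belong to probe sets with no gene name here. For 254764_at the signals were 7.26, 8.49 and 7.97 in OE2, 10.39, 10.99 and 10.79 in OE1, 10.45, 11.05 and 11.07 in fls1-3, and 11.41, 11.03 and 11.30 in Col-0. Its OE2 mean was lower than the nearest mean by a factor of 7.05, and the other 9 arrays lay within a span of about 1 log2 unit. For 253259_at they were 8.08, 4.54 and 6.23 in OE2, 9.29, 8.62 and 8.79 in OE1, 10.96, 10.16 and 10.06 in fls1-3, and 10.01, 9.59 and 8.35 in Col-0. With an SD of 1.77 in OE2, the size of that distance is uncertain.

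**Figure D3:**
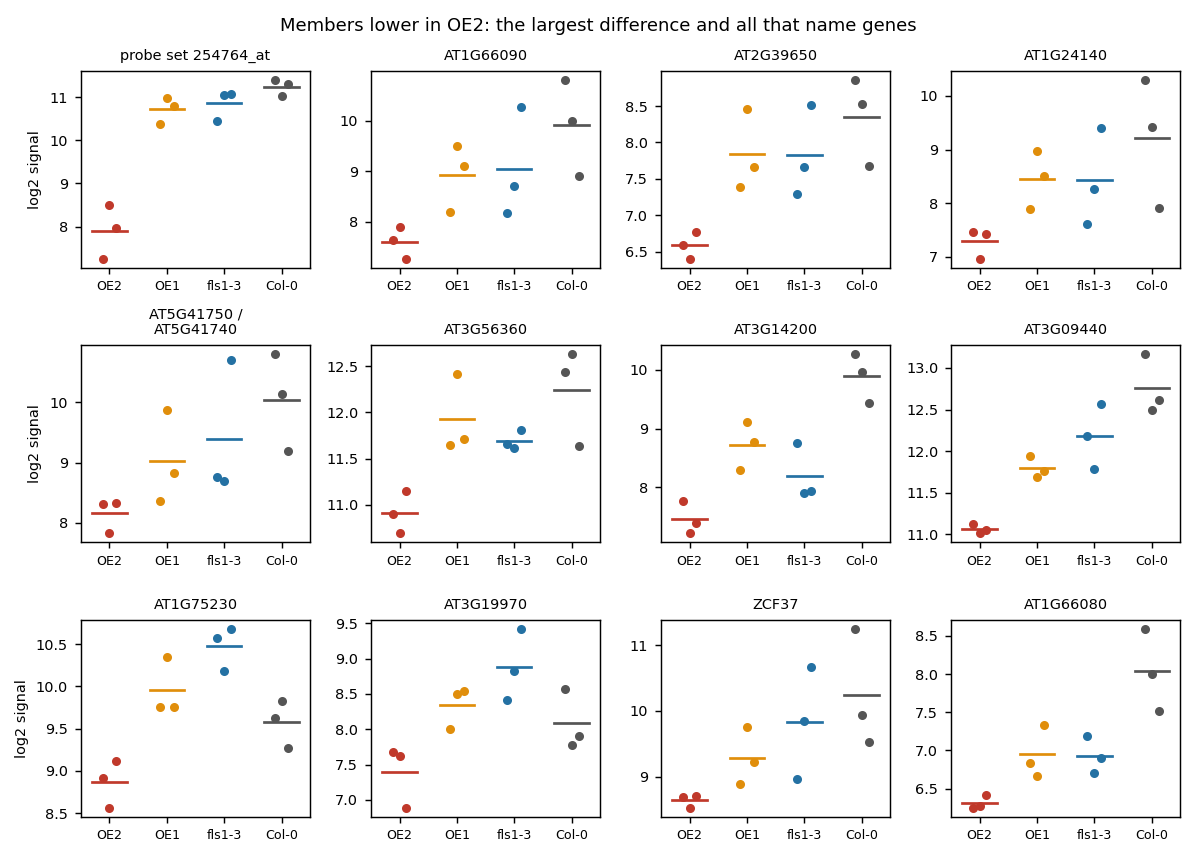
Log2 signals of each array (points) and group means (lines) for OE2, OE1, fls1-3 and Col-0, in the lower member with the largest distance and in the 11 that name genes. The OE2 points lie lowest in every panel, Col-0 is highest in most, and in AT1G75230 and AT3G19970 the fls1-3 mean is highest.

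Among the higher members, genes for regulators stood next to genes for transport and for proteins of unknown role. AT5G07580 encodes a transcription factor of the ERF family. It gave 10.52, 10.16 and 9.998 in OE2, 9.07, 9.004 and 9.17 in OE1, 9.16, 9.85 and 9.01 in fls1-3, and 9.31, 9.28 and 9.02 in Col-0. Its means in the 3 other groups lay within 0.26 log2 units of each other, close together beside the distance to OE2. TCP15, a class I TCP transcription factor gene, gave 9.17, 9.54 and 9.12 in OE2, 9.01, 8.27 and 8.44 in OE1, 9.05, 8.81 and 7.05 in fls1-3, and 7.55, 8.52 and 8.78 in Col-0. The highest arrays of OE1 and fls1-3 came close to OE2, at 9.01 and 9.05 against 9.12. Its distance from the nearest mean, 0.71, was 0.34 without fls1-3 replicate 3. AT3G57800, a bHLH transcription factor gene, gave 8.90, 9.36 and 8.99 in OE2, 8.42, 8.47 and 8.29 in OE1, 8.18, 8.27 and 7.57 in fls1-3, and 7.89, 8.33 and 8.49 in Col-0. It lay 0.69 above the nearest mean, that of OE1.

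A pair of higher members encode RING-H2 proteins, a class that attaches ubiquitin to other proteins. BRH1, named for its response to brassinosteroid, gave 10.90, 10.71 and 10.49 in OE2, 9.42, 9.45 and 9.74 in OE1, 9.85, 10.35 and 9.71 in fls1-3, and 9.25, 9.54 and 9.61 in Col-0. ATL8 gave 8.29, 8.32 and 8.80 in OE2, 7.93, 7.59 and 7.79 in OE1, 7.88, 7.77 and 7.69 in fls1-3, and 7.03, 6.96 and 7.05 in Col-0. In ATL8 the OE1 and fls1-3 arrays lay between OE2 and Col-0 without overlapping either. For that gene fls1-3 minus Col-0 was 0.77 ± 0.20 in limma (SE, n = 3 against 3; adjusted p = 0.100), which did not pass.

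AT3G23550 had the largest distance among the higher members that name a gene, with an OE2 mean 2.01 times the nearest, that of fls1-3. It encodes a MATE-family carrier, a class that exports small molecules from the cytosol. It gave 12.81, 11.98 and 11.63 in OE2, 10.12, 10.21 and 11.01 in OE1, 10.87, 11.36 and 11.18 in fls1-3, and 10.41, 9.39 and 8.45 in Col-0. Both other lines had means above Col-0, by 1.72 ± 0.43 in fls1-3 (SE, n = 3 against 3; limma adjusted p = 0.0953) and by 1.03 in OE1, neither past the threshold. PRA1.F1, for a prenylated RAB acceptor of membrane traffic, had 8.21, 8.21 and 8.25 in OE2 and between 5.93 and 8.004 on the other 9 arrays. It was 1 of 9 PRA1 genes named on the array and the only one among the members, and over the 9 the OE2 mean minus the mean of the other groups ran between -0.02 and 0.89, with a median of 0.21. The distance of PRA1.F1 in OE2 from the nearest mean was 0.66, against 0.41 without OE1 replicate 3 and 0.25 without fls1-3 replicate 3.

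The remaining higher members have varied or unknown roles. AT5G44680, like AT1G75230 a member of the DNA glycosylase superfamily, gave 9.75, 10.23 and 9.57 in OE2, 8.72, 9.24 and 9.01 in OE1, 8.49, 9.39 and 8.24 in fls1-3, and 7.81, 9.36 and 9.45 in Col-0. These relatives thus lay on opposite sides in OE2. The distance of AT5G44680 from the nearest mean was 0.86, and 0.45 without Col-0 replicate 1. AT5G12050 gave 10.84, 11.17 and 10.63 in OE2, 9.26, 9.52 and 9.58 in OE1, 9.77, 10.53 and 9.88 in fls1-3, and 8.22, 10.47 and 9.23 in Col-0. AT3G13980 gave 10.32, 10.05 and 10.36 in OE2, 9.56, 9.19 and 9.03 in OE1, 9.03, 9.66 and 7.37 in fls1-3, and 8.18, 9.24 and 9.56 in Col-0. In AT5G12050 the OE1 arrays lay below the fls1-3 arrays and Col-0 overlapped both, and in AT3G13980 the other 3 groups all overlapped.

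AT1G69160 gave 8.54, 9.03 and 8.99 in OE2, 8.19, 8.28 and 7.72 in OE1, 7.68, 8.28 and 7.66 in fls1-3, and 8.15, 8.15 and 8.13 in Col-0, where the arrays agreed to an SD of 0.012. AT5G01740 gave 8.12, 8.83 and 8.03 in OE2, 6.503, 7.92 and 6.14 in OE1, 6.55, 7.65 and 5.61 in fls1-3, and 7.30, 7.78 and 7.34 in Col-0. Unlike most higher members, these had Col-0 as the nearest group, and the OE1 and fls1-3 means lay below it. AT1G21060 gave 7.83, 8.09 and 7.49 in OE2, 6.90, 6.83 and 6.90 in OE1, 7.23, 7.45 and 6.45 in fls1-3, and 6.51, 7.16 and 6.64 in Col-0, with 7.45 in fls1-3 close below the lowest OE2 array. Its distance of 0.76 from the nearest mean was 0.47 without fls1-3 replicate 3. AT1G75800, of the thaumatin family of defence-related proteins, AT1G10020 and AT1G78110 had OE2 means of 10.66, 8.85 and 7.76 and lay above their nearest group means by 0.65, 0.68 and 0.67. The distance was 0.44 for AT1G10020 without OE2 replicate 2 and 0.34 for AT1G78110 without Col-0 replicate 1. Their lowest OE2 arrays lay only 0.050 and 0.036 above the highest array of the other groups. The probe sets with no gene name included 253207_at, whose OE2 mean of 9.23 lay 1.56 above that of fls1-3 (0.99 without fls1-3 replicate 3), and 260070_at, whose 9.28 lay 1.36 above that of OE1.

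**Figure D4:**
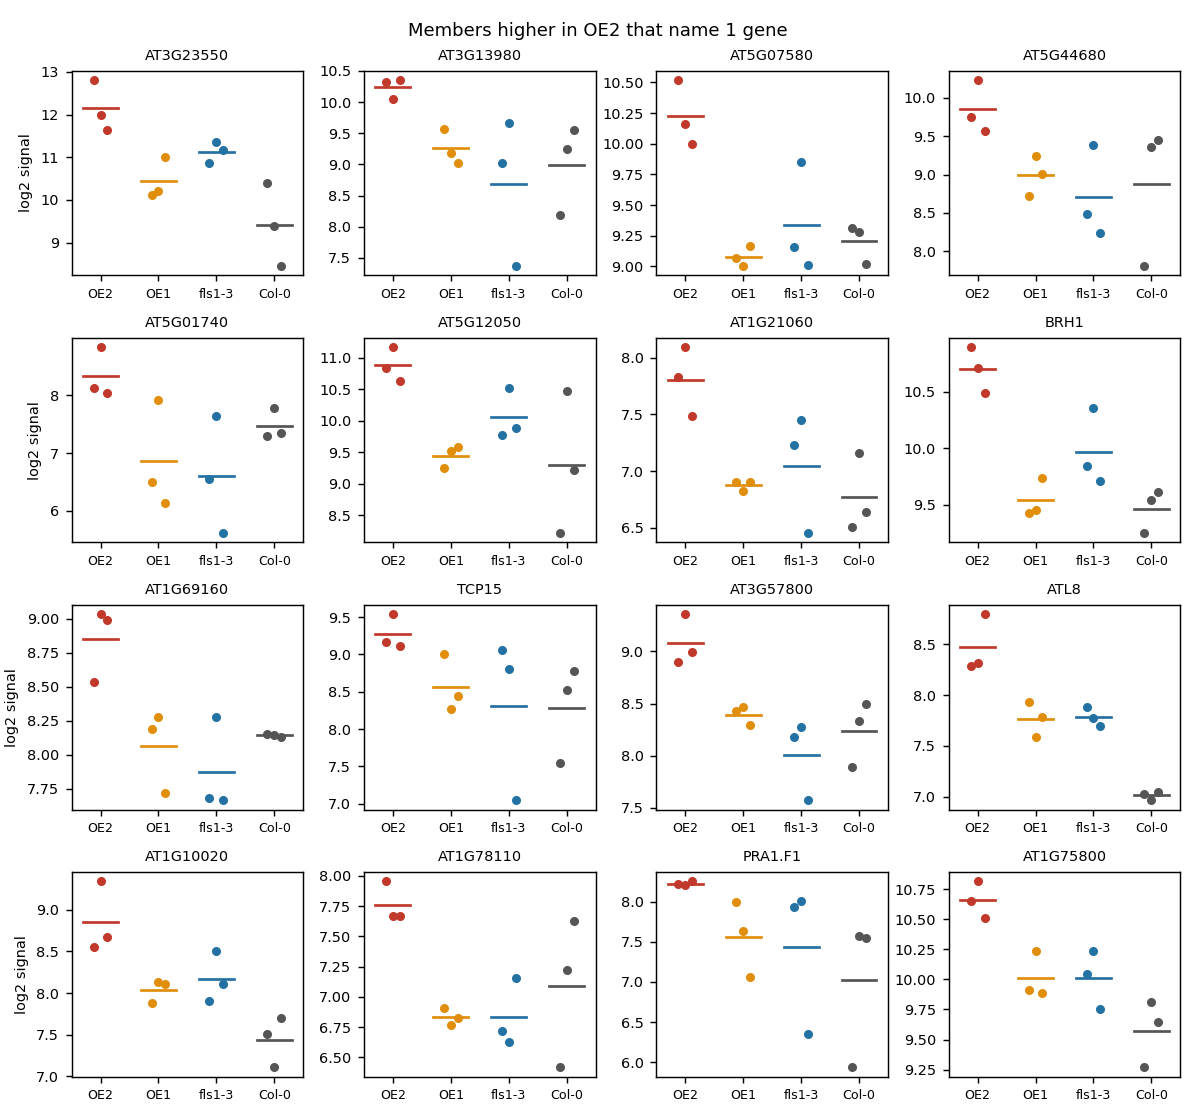
Log2 signals of each array (points) and group means (lines) for OE2, OE1, fls1-3 and Col-0 in the 16 higher members that name 1 gene. The OE2 points lie highest in every panel, and in TCP15, AT1G21060, AT1G10020 and AT1G78110 arrays of other groups come close to them.

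The members nearest the limit show how little divides inside from outside. The higher members closest to it were the unnamed 251642_at and 245947_at, at 0.61 and 0.63. AT5G65660 and AT3G10020 lay just outside at 0.59 and 0.58 and were otherwise separated in the same way. On the lower side the unnamed 263379_at and AT1G66080 were inside at -0.60 and -0.62, the first of them at -0.20 without fls1-3 replicate 3, and 2 unnamed probe sets lay outside at -0.56. A further 113 higher and 44 lower probe sets had all OE2 arrays beyond the others with a smaller difference of means.

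The choice of members fixes where OE2 stands but sets no order among the other 3 groups. It did use their arrays, since none of them could reach the OE2 arrays. Col-0 had the mean farthest from OE2 in 21 of the 35 higher and in 25 of the 30 lower members, and the nearest mean in 7 and 3. The matching shares over the open probe sets were not worked out, so these counts are not read as an order of the lines. Col-0 also had the largest median SD of the groups, 0.294. Among the lower members, the median of OE1 minus Col-0 was -0.69, against 0.07 over the 12126 open probe sets, and that of fls1-3 minus Col-0 was -0.62, against -0.02. Among the higher members these medians were 0.27 and 0.37. Members went both ways between OE1 and fls1-3. Among the higher members fls1-3 minus OE1 ran between -0.70 and 0.89 with a median of -0.0014, and among the lower between -0.85 and 1.49 with a median of 0.09, against a median of -0.10 over the open probe sets. The comparisons of OE2, OE1 and fls1-3 with Col-0 share the Col-0 arrays, so a high or low Col-0 value moves them together.

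Tested in limma over all 22746 probe sets, 5 members passed for fls1-3 against Col-0, where 2.13% of the open probe sets (1.45% higher and 0.676% lower) and 1.2% of all passed. The fit took its spread from all 12 arrays, OE2 included, which the choice had also used. The calls are therefore not independent of the choice. AT3G14200, the DnaJ-domain gene, fell by 1.70 in fls1-3 on the log2 scale, with an SE of 0.30 and an adjusted p of 0.0178 from limma. It was the 1 member naming a gene that passed. Its call was lost when the fit held those groups alone (adjusted p = 0.127), without the intensity trend (0.0738), and without Col-0 replicate 2 (0.0860), fls1-3 replicate 2 (0.0815) or fls1-3 replicate 3 (0.0584), or without both Col-0 replicate 1 and fls1-3 replicate 3 (0.0929). The unnamed 254120_at fell by 2.08 ± 0.38 (limma adjusted p = 0.0229), with means of 8.55 in fls1-3 and 10.63 in Col-0. It did not pass without Col-0 replicate 1 (adjusted p = 0.0534) or 2 (0.112), or without fls1-3 replicate 1 (0.0745) or 2 (0.0986). With arrays centred on their medians its difference was -2.12 and it did not pass (0.0659). Both lie among the lower members, so fls1-3 and OE2 stood on the same side of Col-0, with OE2 farther out.

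The other 3 that passed are higher members with no gene name, given here after their values were seen. The probe set 267461_at rose by 1.67 ± 0.18 in fls1-3 (SE, n = 3 against 3; limma adjusted p = 0.000988), with means of 9.48 in fls1-3 and 7.81 in Col-0, and 10.44 in OE2. The probe set 251642_at rose by 1.62 ± 0.23 (adjusted p = 0.00499) and 247013_at by 1.97 ± 0.39 (adjusted p = 0.0316). The last did not pass without Col-0 replicate 2 (adjusted p = 0.0702), without fls1-3 replicate 2 (0.131) or 3 (0.0868), or without any 1 of the OE2 arrays (0.0528 to 0.0558). With centred arrays its difference was 1.93 and it did not pass (0.0794). The first of these had arrays of 9.43, 9.53 and 9.49 in fls1-3 against 8.01, 8.01 and 7.42 in Col-0, a clear step. Of the 5 calls, 3 remained with the replicate number as a block and 0 in a fit of fls1-3 and Col-0 alone.

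For OE1 against Col-0, limma called 0 members and 0 of the open probe sets. At an unadjusted p under 0.05 there were 11 higher and 10 lower members, all with OE1 on the side of OE2, against 14.4% of the open probe sets, 7.77% higher and 6.65% lower. The members were chosen for OE2 lying away from the same Col-0 arrays that OE1 is compared with here. Neither the shared side nor the share of members is therefore independent of the choice. AT3G09440, the HSP70-family gene, had a difference of -0.96 with an unadjusted limma p of 0.000679, and the lowest adjusted p among the lower members was 0.336. For fls1-3 against OE1, limma called 0 members, where 1.01% of the open probe sets (0.833% higher, 0.181% lower) and 0.554% of all passed. There 3 higher and 3 lower members had an unadjusted p under 0.05, against 23.7% of the open probe sets.

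Within the other groups the lower members largely shared an order of arrays, which the choice of members did not ask for. Within Col-0, replicate 1 was the highest array for 25 of the 30 lower members and replicate 3 the lowest for 27, where 35.8% and 28.8% of the open probe sets had these extremes. Within OE1, replicate 2 was highest for 26 and replicate 1 lowest for 24, against 35.5% and 35.3%. Within fls1-3, replicate 3 was highest for 21, against 33.4%. AT1G66090, AT2G39650, AT1G24140, ZCF37, AT3G56360 and the probe set of AT5G41750 and AT5G41740 were among the 15 lower members, or 50%, with Col-0 replicate 3 and OE1 replicate 1 lowest and fls1-3 replicate 3 highest. Of the higher members 0 had this order, and of the open probe sets 13.6%, all without centring of the arrays. The open probe sets as a whole varied along the same arrays. Their deviations from the group means correlated at 0.60 between Col-0 replicate 3 and OE1 replicate 1. Between Col-0 replicate 3 and fls1-3 replicate 3 the correlation was -0.71. The order is thus not particular to the members, though it was more frequent among the lower ones. The higher members had an order of their own. Within fls1-3, replicate 2 was highest for 25 of the 35 (71.4%, against 21.9% of the open probe sets) and replicate 3 lowest for 24 (68.6%, against 44.3%), and within Col-0 replicate 1 was lowest for 24 (68.6%, against 43.5%). These orders were picked out after the values were seen.

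The median signal of whole arrays also differed within the groups, and its part in these orders was not tested. Col-0 replicates 1, 2 and 3 had medians of 7.10, 7.25 and 7.43 over all probe sets, OE1 replicates 1, 2 and 3 had 7.55, 7.31 and 7.42, and fls1-3 replicates 1, 2 and 3 had 7.51, 7.27 and 7.12. In Col-0 and OE1 the lower members thus ran against the array median. The OE2 arrays had medians of 7.36, 7.40 and 7.47, inside the range of the others. With each array centred on its median, Col-0 replicate 3 was still the lowest for 29 lower members and OE1 replicate 1 for 28, where these shares were 49.2% and 52.6% of the open probe sets. Col-0 replicate 1 and OE1 replicate 2 were then highest for 27 each, against 52.6% and 52.3%. In fls1-3, replicate 3 was highest for 23, against 53.5%. The order of the higher members held only in part. After centring, fls1-3 replicate 2 was highest for 25 and Col-0 replicate 1 lowest for 20, against 25.1% and 27.7% of the open probe sets. But fls1-3 replicate 3 was then lowest for 12 and replicate 1 for 23, against 25.4% and 58.7%.

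Centring affected the higher and the lower members unequally. Of the lower members, 26 of 30 met the choice again after centring, among them 9 that name 1 gene. Of the higher members 12 of 35 did, and AT3G23550, AT3G13980, TCP15, AT3G57800 and PRA1.F1 were the 5 that name a gene. The other 11 named higher members, AT5G07580, BRH1 and ATL8 among them, then missed the mean difference or the separation, although their OE2 mean stayed above every other group mean.

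**Figure D5:**
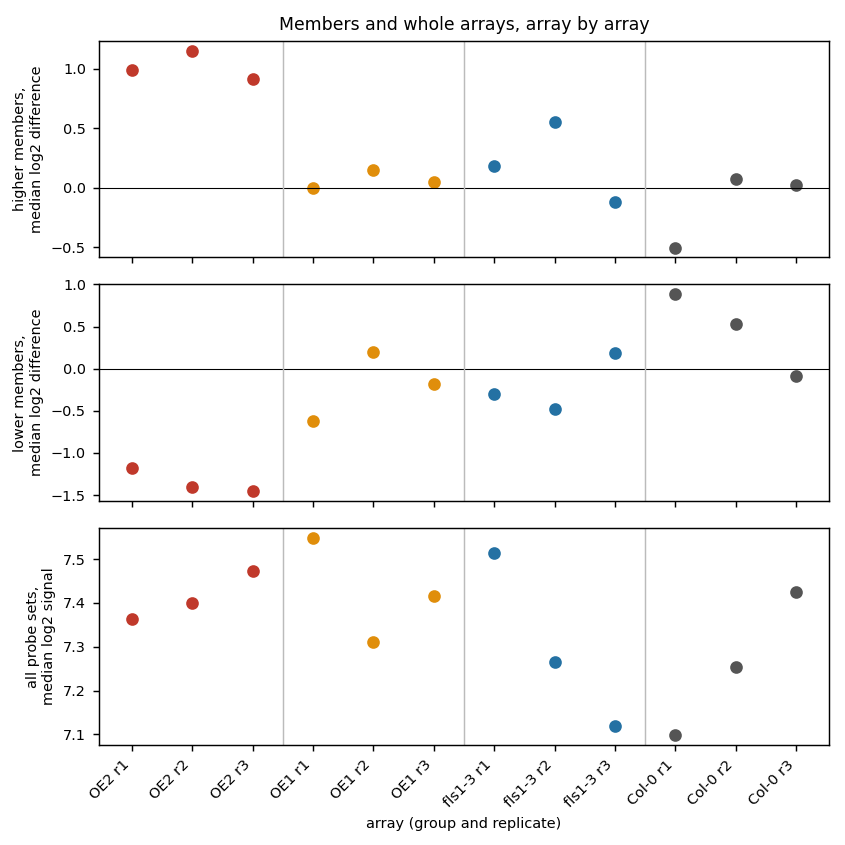
For each array, the upper panels give the median over the 35 higher and the 30 lower members of the log2 signal minus the mean of the OE1, fls1-3 and Col-0 means, and the lowest panel gives the median log2 signal of all probe sets. The OE2 arrays stand at 0.92 to 1.15 and -1.45 to -1.17 in the upper panels, and Col-0 replicate 1 stands farthest from them on the lower members, at 0.88.

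Neither the 26 members naming 1 gene nor the 1 naming a pair was among the 48 named genes of the 12 pathway and marker lists. The lists hold 307 genes in all, so for the 38 unnamed members and the other list genes this is not known. Against Col-0, limma called 6 of the 48 in OE2, where 0.989% of all probe sets and 1.72% of the open ones passed, 0.891% higher and 0.833% lower. The lists were chosen with earlier results of these data known, so this share is not independent evidence about the listed genes. The count ranged from 1 to 6 with 1 array left out and fell under other settings given below. MCCA of leucine breakdown rose by 1.21 ± 0.19 (SE, n = 3 against 3; limma adjusted p = 0.00973), and AKINBETA1, for a subunit of the energy-sensing kinase SnRK1, by 0.92 ± 0.14 (limma adjusted p = 0.00973). They failed the choice above because fls1-3 lay within 0.54 and 0.29 of OE2. The others that passed were MGL and AT5G05600, which rose, and WRKY53 and AT1G04770, which fell. Of the rapid stress response regulators, 5 of 57 were named and WRKY53 alone passed, with means of 8.81 in OE2, 10.08 in OE1, 8.61 in fls1-3 and 10.94 in Col-0.

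Apart from AT1G66080 and AT1G66090, no named member lies next to another on the chromosome. The 26 named members lie on chromosomes 1, 2, 3 and 5, with 13 of them on chromosome 1, and 22 of their 52 neighbouring genes have a named probe set, of which only these 2 are members. AT1G66100, on the other side of AT1G66090, had means of 12.37 in OE2, 11.14 in OE1, 12.06 in fls1-3 and 11.63 in Col-0. AT1G66070, on the other side of AT1G66080, had 7.88 in OE2, 8.42 in OE1, 7.92 in fls1-3 and 7.97 in Col-0. None of the 26 genes has another probe set that names it alone, so no member gene was measured by a second one.

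The markers of leaf tissue were present. The 3 named mesophyll genes of 24, RCA, LHCB4.1 and PRK, were among the brightest signals, with a log2 of the summed signal of 15.96 to 16.04 in OE2, 15.82 to 16.40 in OE1, 15.56 to 16.15 in fls1-3 and 16.06 to 16.39 in Col-0. Of 19 markers of other cell types, 2 are named, PYK10 and FMA, and the log2 of their summed signal ran from 10.06 to 11.16 in OE2, 6.98 to 11.15 in OE1, 6.19 to 11.40 in fls1-3 and 6.91 to 10.84 in Col-0. PYK10, a gene of root and seedling endoplasmic reticulum bodies, ran from 9.86 to 11.11 in OE2, 5.35 to 11.11 in OE1, 0.35 to 11.36 in fls1-3 and 5.79 to 10.78 in Col-0, so the groups overlapped and OE2 lacked the low values. Its part in the results was not tested. The GAPDH control differed between its 3' and 5' ends by 1.15 to 1.65 log2 units on OE2 arrays, 2.1 to 2.44 in OE1, 0.86 to 1.64 in fls1-3 and 1.19 to 1.40 in Col-0. For ubiquitin the difference was 1.88 to 1.90 in OE2, 1.86 to 2.44 in OE1, 1.303 to 1.447 in fls1-3 and 1.35 to 1.84 in Col-0, and for actin 4.76 to 4.92 in OE2, 5.15 to 5.47 in OE1, 4.63 to 5.08 in fls1-3 and 4.83 to 5.30 in Col-0. OE2 thus overlapped fls1-3 and Col-0 for GAPDH and lay above both for ubiquitin. The part of RNA quality in the results was not tested.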

How the data were processed

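Leaf RNA of each sample was measured on its own Affymetrix array. The labelling reaction started with 6 µg of RNA, per the labels' protocols. The deposited values are log2 MAS5 signals. MAS5 is named in the submitters' processing notes, with no version given in the sources used here. From the values themselves, the authors had scaled every array to the same 2% trimmed mean of linear signal, 500.05, with a floor at 0, which leaves array medians free to differ. Titles and genotype labels gave the groups. The titles call the replicates biological but do not say whether they came from separate plants, so p-values measure the spread between arrays only. The number of arrays limits the precision.

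Gene names came from a platform annotation of the probe sets and from reference genes of TAIR10.1, used for names and neighbours. Of 22746 probe sets, 13523 name 1 gene, 493 several and 8730 none, and 64 control probe sets were left out. The 77 plastid probe sets were left out of the choice of members and kept in the fit.

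The members, gene lists and tests were chosen with earlier results of these data known. Contrasts between OE1, fls1-3 and Col-0, and OE2 against Col-0 for listed genes, were tested in limma 3.58.1 (R 4.3.3) on the deposited values of all 12 arrays, 1 coefficient per group, 8 residual degrees of freedom and an intensity trend, with Benjamini-Hochberg adjustment over all 22746 probe sets and a threshold of 0.05. No filter or pseudocount was applied. Values of each array were to be given for the 12 named members of each direction with the largest distance from the nearest group mean, for list members, for members that passed a contrast and for those at the limit. The calculation was run on simulated data with planted differences. For the choice of members these lay clear of the noise, so their recovery was fixed in advance. The simulated arrays shared no variation with each other, so this run does not measure how well the method works on these data. Alternatives were quantile normalization, median centring, pseudocounts of 16 and 64 on the linear scale, other limits of the choice, a filter at a mean of 7, fits of the compared groups only, no trend, array quality weights, a replicate block and leaving out each array. The fit without Col-0 replicate 1 and fls1-3 replicate 3, the arrays of lowest median, and the counts of listed genes, were added after the data were seen.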

Additional observations from a re-analysis of the deposited data

Results flagged for a closer look

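In 3 of the lower members, all 3 fls1-3 arrays lay above every Col-0 array while all 3 OE2 arrays lay below every Col-0 array, so the lines stood on opposite sides of the wild type. Over the probe sets open to the choice, 8.05% had all fls1-3 arrays above the Col-0 arrays, a share similar to 3 of the 30 lower members. The position of OE2 was fixed by the choice. The difference between the lines was not tested, since the choice of members used it. The fls1-3 mean minus the Col-0 mean was 0.90 for AT1G75230 of the DNA glycosylase superfamily, 1.08 for the unnamed probe set 253259_at and 1.14 for the unnamed probe set 266901_at. None of these fls1-3 differences passed the limma test against Col-0, the adjusted p being 0.0839 for AT1G75230, 0.695 for 253259_at and 0.293 for 266901_at. For OE1, 0 members had this arrangement.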

How the results depend on the processing

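The 26 named members kept OE2 beyond every other group mean under all 17 settings of normalization, pseudocount and left-out arrays. They had been chosen for standing on that side. Of the 442 distances 435 moved by less than the spread of arrays and 7 by more: AT5G44680, TCP15 and PRA1.F1 under 2 settings each and AT1G66080 with a pseudocount of 64, where the difference was -0.38. Under all 17, 8 higher and 15 lower members met the choice again. Of these only AT3G23550, AT3G13980, AT1G66090, AT2G39650, AT3G56360 and AT3G09440 name a gene. AT1G78110 and AT1G75800 met it again under 11 of the 17 and AT1G66080 under 8. Of the counts of members, 35 higher and 30 lower, the higher became 14 with arrays centred on their medians. Without a floor on the mean they were 79 and 74, at a difference of at least 0.8 they were 16 and 16, and at 1 they were 5 and 12. With 1 array left out the higher ranged from 33 to 65 and the lower from 24 to 73. The higher were 65 without OE2 replicate 3 and 57 without fls1-3 replicate 2. The lower were 52 without OE1 replicate 1, 73 without OE2 replicate 1 and 51 without fls1-3 replicate 2. Fewer arrays make the separation easier to meet.

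Members called for fls1-3 against Col-0, 5 in limma, were 3 with centred arrays, 0 with only the groups compared, 2 without the intensity trend, 20 with array quality weights and 3 with the replicate block. With 1 array left out they ranged from 2 to 7, with 2 without Col-0 replicate 2 or fls1-3 replicate 2 and 3 without fls1-3 replicate 3. For OE1 against Col-0 limma gave 0 under every setting run. For fls1-3 against OE1 the count of 0 became 1 with a pseudocount of 64, 1 with only probe sets of mean at least 7 and 9 with array quality weights, and ranged from 0 to 1 with 1 array left out. Listed genes called in OE2, 6, were 3 with centred arrays, 3 with only the groups compared and 1 without the trend, and ranged from 1 to 6 with 1 array left out, with 2 without OE2 replicate 1 and 1 without OE2 replicate 2. The cause was not tested. Deviations of same-numbered arrays of different groups had correlations from -0.71 to 0.74 and a median of 0.040 over 18 pairs. Differently numbered arrays had -0.67 to 0.68 and a median of 0.037 over 36 pairs. Centring on the group means draws both medians towards 0, so with 3 arrays per group this check cannot exclude a pairing by replicate number. Strong correlations occurred with and without a shared number. Examples are 0.74 for OE1 replicate 1 with fls1-3 replicate 1 and 0.68 for Col-0 replicate 1 with fls1-3 replicate 3. Arrays of different groups thus shared variation, the source of which was not tested. With the replicate block the counts for OE1 against Col-0, fls1-3 against OE1 and listed genes were 0, 0 and 6.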
